A study of Mus musculus with 2 samples.

Results

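Voltage-gated sodium channels open when a neuron's membrane depolarises and carry the inward sodium current of the action potential. Each channel has 1 large pore-forming subunit, here Nav1.1 (Scn1a), Nav1.2 (Scn2a), Nav1.3 (Scn3a), Nav1.6 (Scn8a) or Nav1.7 (Scn9a), and smaller beta subunits with a single membrane-spanning segment, here the products of Scn2b, Scn3b and Scn4b, which alter gating and surface delivery and act as adhesion molecules. The 8 genes were picked by symbol from the 55536 genes of the deposited tables, 5 of them for pore subunits and 3 for beta subunits, and each symbol matched 1 gene. The data are total RNA sequencing of hippocampus from 2 male mice of strain B6CASTF1/J, an F1 hybrid of C57BL/6J and CAST/EiJ, both aged 36 days. The labels call the tissue a layer of the hippocampus without saying which, and name no genotype change, treatment or contrast, so both libraries form 1 group and no conditions can be compared. Each library is 1 animal by its biological replicate number. The labels list 1 donor identifier for both, and separate biosample records, so their being separate animals rests on the replicate numbers and those records.

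The 2 libraries held 28786216 expected counts in replicate 1 and 29755033 in replicate 2, of which 0.421% and 0.408% fell on the ERCC spike-in RNAs that had been added. The tissue label was checked against neuronal markers, and Slc17a7, Camk2a, Neurod6 and Nrgn, all of excitatory neurons, summed to 2613 TPM in each library. The equal sums hide differences beyond counting error, by the exact binomial test given further on, in which Camk2a was higher in replicate 2 (ratio of replicate 1 to replicate 2, 0.927) and Neurod6 and Nrgn higher in replicate 1 (1.15 and 1.05). Markers of CA1 (Wfs1, Mpped1, Fibcd1), dentate granule cells (Prox1, C1ql2, Dsp) and CA3 (Cpne4, Bok) were all detected. TPM is a level corrected for transcript length and for the depth of the library. The 2 libraries differed in some of these markers. The CA1 markers summed to 200.56 TPM in replicate 1 and 170.71 TPM in replicate 2, and the dentate granule markers to 63.65 TPM in replicate 1 and 84.12 TPM in replicate 2. The 3 choroid plexus markers summed to 7.88 TPM in replicate 1 and 186.32 TPM in replicate 2. The 3 markers of skeletal or heart muscle summed to 1.54 and 1.44 TPM, with Ckm at 0 in both libraries, and the 3 sensory neuron markers to 1.03 and 1.14 TPM.

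In the forebrain, Nav1.2 and Nav1.6 are known as the main channels of excitatory neurons, Nav1.1 is best known from inhibitory interneurons, Nav1.3 from the embryonic and newborn brain, and Nav1.7 from peripheral sensory and sympathetic neurons. Several pore subunit genes carry a pair of mutually exclusive exons that encode part of the first domain's voltage-sensing region. The upstream exon of such a pair is known as the neonatal form and the downstream exon as the adult form, and a mature message normally holds 1 of them. In the GENCODE M21 annotation, Scn2a, Scn3a, Scn8a and Scn9a each had such a pair of equal length, 92 bases per exon, and none was annotated for Scn1a. The downstream exons are shown because the transcripts were grouped by these pairs further on. Each is read 5′ to 3′ on the gene's own strand from the mm10 transcripts, which give the C57BL/6J allele and not the CAST/EiJ allele that these hybrids also carry, and capitals mark the positions at which it differs from the upstream exon of the same gene.

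Scn2a downstream exon: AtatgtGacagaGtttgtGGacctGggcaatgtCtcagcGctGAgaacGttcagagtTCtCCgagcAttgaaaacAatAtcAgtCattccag
Scn3a downstream exon: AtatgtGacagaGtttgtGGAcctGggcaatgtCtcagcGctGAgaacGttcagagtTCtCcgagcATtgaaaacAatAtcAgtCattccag
Scn8a downstream exon: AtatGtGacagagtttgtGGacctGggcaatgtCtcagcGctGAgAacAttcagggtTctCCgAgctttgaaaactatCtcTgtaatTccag
Scn9a downstream exon: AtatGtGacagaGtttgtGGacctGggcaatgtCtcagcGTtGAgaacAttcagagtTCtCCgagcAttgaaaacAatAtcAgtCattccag

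In mm10, the downstream exon lies at chr2:65682690-65682781 on the plus strand in Scn2a and at chr2:65525695-65525786 on the minus strand in Scn3a. It lies at chr15:100959603-100959694 on the plus strand in Scn8a and at chr2:66563336-66563427 on the minus strand in Scn9a, and all 4 exons are coding. Within a pair, the 2 exons differed at 20 bases in Scn2a, 21 in Scn3a, 19 in Scn8a and 22 in Scn9a. The exons resembled their counterparts in the other genes more than their own partners. The downstream exons of Scn2a and Scn3a were identical over all 92 bases, the upstream exons of Scn2a and Scn9a differed at 1 base, and the most distant counterparts, the upstream exons of Scn3a and Scn8a, differed at 13. A read lying wholly inside the identical downstream exon cannot be assigned to Scn2a or Scn3a by sequence.

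Among the pore subunits, Scn2a and Scn8a stood far above the rest. Scn2a (ENSMUSG00000075318.12, chr2:65620771-65767447, plus strand) was at 106.80 TPM in replicate 1 and 97.71 TPM in replicate 2, a mean of 102 TPM ± 6.43 (SD, n = 2). Scn8a (ENSMUSG00000023033.14, chr15:100869858-101045938, plus strand), whose channel gathers at the axon initial segment and nodes of Ranvier, was at 104.90 TPM in replicate 1 and 98.45 TPM in replicate 2, a mean of 102 TPM ± 4.56. The 2 genes could not be ordered, since their ranges overlapped. Scn1a (ENSMUSG00000064329.13, chr2:66270778-66440840, minus strand) was at 30.54 TPM in replicate 1 and 27.11 TPM in replicate 2. Scn3a (ENSMUSG00000057182.14, chr2:65457118-65567627, minus strand) was at 14.96 TPM in replicate 1 and 15.62 TPM in replicate 2. Scn1a exceeded Scn3a in both libraries, by 2.04-fold in replicate 1 and 1.74-fold in replicate 2. Scn9a (ENSMUSG00000075316.11, chr2:66480080-66634962, minus strand) was the lowest of the 8, at 1.54 TPM in replicate 1 and 1.48 TPM in replicate 2.

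Of the beta subunits, Scn2b and Scn3b were as high as the leading pore subunits and Scn4b was low. Scn2b (ENSMUSG00000070304.12, chr9:45117782-45130070, plus strand), whose product links to the pore subunit by a disulfide bond, was at 104.32 TPM in replicate 1 and 99.89 TPM in replicate 2, a mean of 102 TPM ± 3.13. Scn3b (ENSMUSG00000049281.16, chr9:40269217-40291618, plus strand), whose product binds without such a bond, was at 92.25 TPM in replicate 1 and 102.86 TPM in replicate 2, a mean of 97.6 TPM ± 7.50. Scn4b (ENSMUSG00000046480.6, chr9:45138395-45154152, plus strand), a disulfide-linked subunit known for its part in resurgent sodium current in cerebellar Purkinje cells, was at 4.76 TPM in replicate 1 and 4.39 TPM in replicate 2. Scn2b and Scn4b are neighbours on chromosome 9, with 8324 bases between the end of Scn2b and the start of Scn4b. Scn2b was far above Scn4b in both libraries.

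By mean TPM the order was Scn2a, Scn2b, Scn8a, Scn3b, Scn1a, Scn3a, Scn4b and Scn9a. The first 4 had overlapping ranges between neighbours, so their order is not resolved. Every later step exceeded the spread between the libraries. Scn3b was 3.02-fold above Scn1a in replicate 1 and 3.79-fold in replicate 2, Scn3a was 3.14-fold and 3.56-fold above Scn4b, and Scn4b was 3.09-fold and 2.97-fold above Scn9a. All 8 genes reached 1 TPM in both libraries, against a background of 26.8% of all 55536 genes and 57.8% of the 22028 protein-coding genes. Because the 8 genes were chosen with earlier results of these data known, that count is not a result about sodium channel genes. Among protein-coding genes ranked from the highest TPM, Scn2a was at rank 733 in replicate 1 and 813 in replicate 2, and Scn9a at 12336 and 12390. In an RNA sample of whole tissue, these levels average over all cell types and do not say which cells hold the message.

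**Figure D1:**
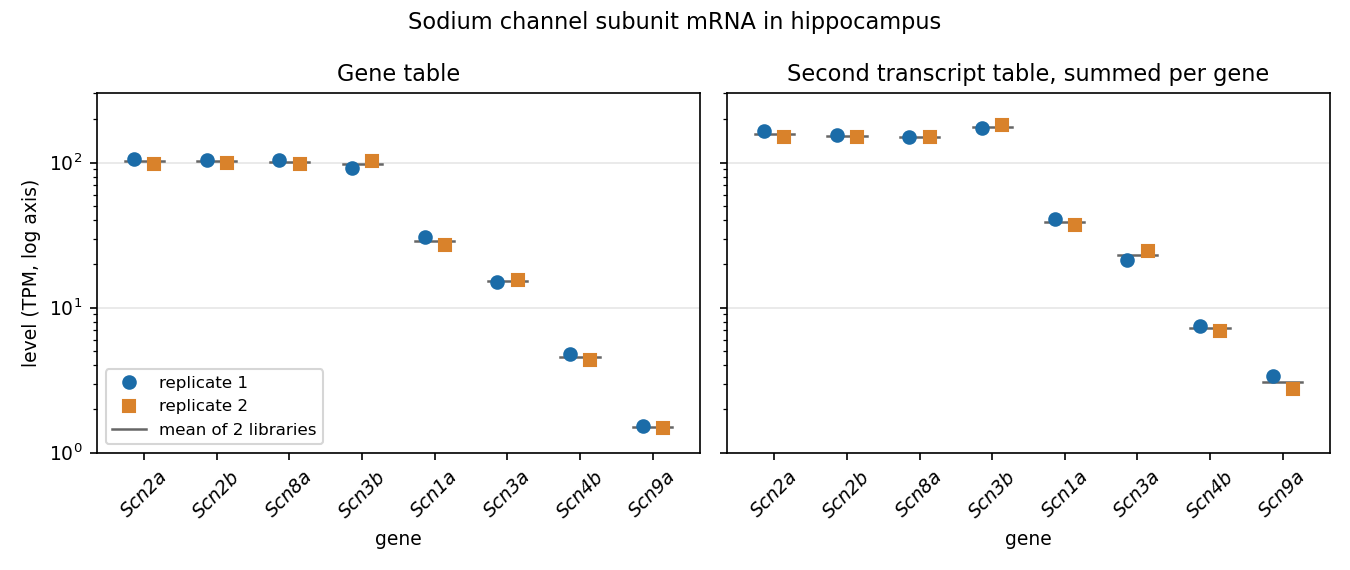
Level of each subunit gene in TPM (log axis) in replicate 1 (circles) and replicate 2 (squares), with the mean of the 2 libraries as a bar, from the gene table (left) and from the second transcript table summed per gene (right). Scn2a, Scn2b, Scn8a and Scn3b sit together near 100 TPM in the gene table, and Scn9a is lowest in both tables.

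Read as shares, Scn2a made up 41.3% of the summed pore subunit TPM in replicate 1 and 40.6% in replicate 2, and Scn8a 40.5% and 41.0%. Scn1a contributed 11.8% in replicate 1 and 11.3% in replicate 2. Scn3a contributed 5.78% and 6.50%, and Scn9a 0.595% and 0.616%. Of the summed TPM of the 3 beta subunits, Scn2b held 51.8% in replicate 1 and 48.2% in replicate 2, Scn3b 45.8% and 49.7%, and Scn4b 2.36% and 2.12%. Whether Scn2b or Scn3b was higher thus differed between the libraries. The pore subunits summed to 258.74 TPM in replicate 1 and 240.37 TPM in replicate 2, and the 3 beta subunits to 201.33 and 207.14 TPM. The ratio of the pore to the beta sum was 1.29 in replicate 1 and 1.16 in replicate 2.

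The depth behind these levels differed by gene. Scn8a had 15228 expected counts in replicate 1 and 14837 in replicate 2, and Scn9a 270.40 and 277.29. Expected counts are read counts in which a read matching several transcripts is divided among them. The deposited gene table gives a posterior standard deviation of each count, and it was above 0 for 4 of the 8 genes. These were Scn1a, Scn2a, Scn3a and Scn9a, the members of the chromosome 2 cluster, which spans 1177845 bases. For them the value ran from 2.87 counts (Scn9a, replicate 2) to 7.59 counts (Scn2a, replicate 1). For Scn8a, Scn2b, Scn3b and Scn4b it was 0 in both libraries, so that no count was divided with another gene. That small uncertainty in the 4 clustered genes concerns the division of shared reads only, and counting error comes on top of it. How many genes of the whole series have a value above 0 was not counted.

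Some annotated genes overlap the members, and whether reads were counted by strand is not given in the sources used here. On the opposite strand over Scn9a, the antisense gene Gm13629 was at 1.84 TPM (35 expected counts) in replicate 1 and 2.05 TPM (37 expected counts) in replicate 2. Its TPM was thus above that of Scn9a in both libraries, on fewer counts. Over Scn1a, Gm13630 had 12 counts in replicate 1 and 9 in replicate 2, and Gm23046, also over Scn9a, had 1 and 0. Gm13595 over Scn3a, Gm10684 over Scn2b and Gm47266 over Scn3b had 0 counts in both libraries. Without knowledge of the strand setting, reads of Scn9a and Gm13629 where they overlap cannot be told apart.

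The transcripts that carry each exon of the pair were then compared by their TPM in the first transcript table, which comes with the gene table. For Scn2a, transcripts with the upstream exon made up 63.5% of those carrying either exon in replicate 1 and 62.4% in replicate 2. The carriers were Scn2a-201 and Scn2a-202 for the upstream exon and Scn2a-204 and Scn2a-205 for the downstream exon. For Scn3a the order was the other way, with the downstream exon at 90.9% in replicate 1 and 95.3% in replicate 2. For Scn8a the downstream exon was also ahead, at 77.8% in replicate 1 and 74.0% in replicate 2. Scn9a had the upstream exon at 100% in both libraries, because Scn9a-207, the 1 annotated carrier of its downstream exon, was estimated at 0. Posterior intervals for Scn9a-207 reached 0.470 TPM in replicate 1 and 0.343 TPM in replicate 2, so at this depth a share of the downstream form in a gene near 1.5 TPM is not bounded closely. By these transcript shares, carriers of the upstream exon led in Scn2a and Scn9a. Carriers of the downstream exon led in Scn3a and Scn8a, the same in both animals.

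The second transcript table, a separate estimate from the same libraries, put carriers of the same exon ahead in each gene. It put the Scn2a upstream exon at 60.5% in replicate 1 and 60.1% in replicate 2. For Scn3a it put the downstream exon at 100% in both libraries, and for Scn8a at 81.7% in replicate 1 and 75.2% in replicate 2. Scn9a was again at 100% for the upstream exon in both. These shares are estimates over whole transcripts, and the carriers also differ elsewhere in their starts, ends and completeness. The Scn2a downstream carrier Scn2a-204 is an annotated fragment of 1810 bases with an incomplete coding sequence, and so are the Scn8a upstream carriers Scn8a-212, of 2565 bases, and Scn8a-210, of 2110 bases. With only carriers of a complete coding sequence counted, the first table put the Scn2a upstream exon at 83.3% in replicate 1 and 81.3% in replicate 2, and the second table at 66.8% and 65.03%. Counted the same way, the Scn8a downstream exon was at 99.5% and 99.7% in the first table and at 92.4% and 88.8% in the second. The sole upstream carrier of Scn3a, Scn3a-203, is a 365-base fragment that leaves no complete carrier. Both Scn2a upstream carriers end at chr2:65767447. The downstream carriers end earlier, Scn2a-205 at chr2:65765055 and Scn2a-204 at chr2:65690175. Among the carriers, reads past those ends can only count towards the upstream exon. Reads over the exons themselves were not used, so these shares do not settle which exon most messages held.

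**Figure D2:**
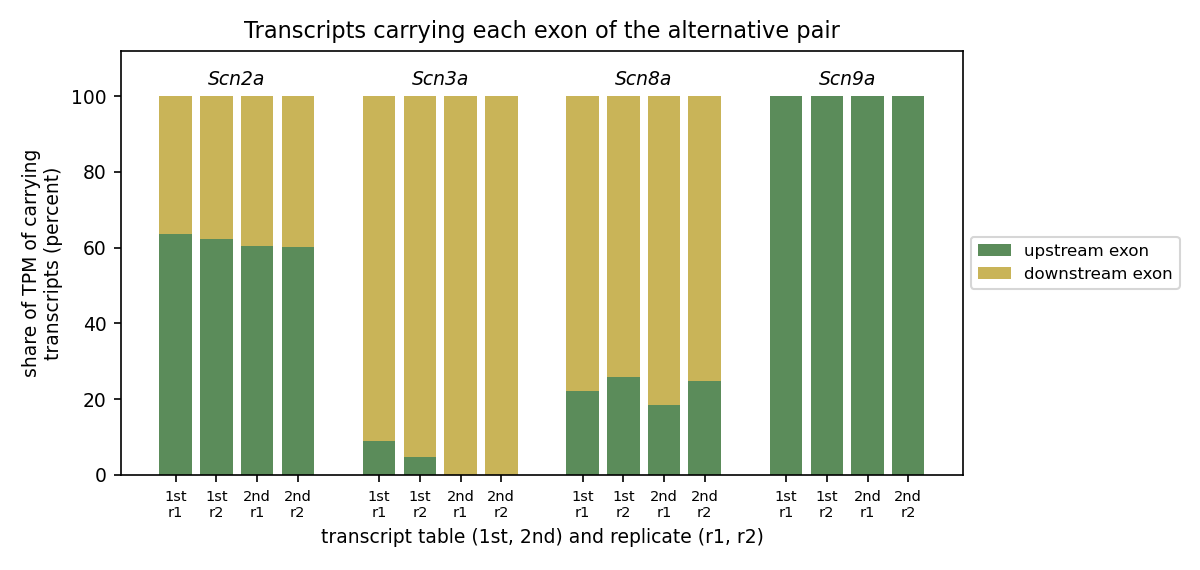
Share (percent) of the TPM of transcripts carrying either exon of the alternative pair, for Scn2a, Scn3a, Scn8a and Scn9a, by transcript table (1st, 2nd) and replicate (r1, r2). The lower part of each bar is the carriers of the upstream exon, which lead in Scn2a and Scn9a. The upper part is the carriers of the downstream exon, which lead in Scn3a and Scn8a.

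Of the 7 members with more than 1 annotated transcript, 3 had a transcript above 50% of the gene in both libraries, against a background of 60.7% of 12013 genes with several transcripts at 1 TPM or more. These were Scn2b-202 at 83.6% in replicate 1 and 83.4% in replicate 2, Scn3a-202 at 78.8% and 75.1%, and Scn9a-202 at 63.4% and 67.0%. Scn4b has 1 annotated transcript. In the second table Scn2b-202 was at 100% in both libraries and Scn3a-202 at 88.6% in replicate 1 and 84.9% in replicate 2. Scn9a-202 was at 18.5% and 19.8% there, with Scn9a-203 ahead at 55.3% and 59.7%. The leading transcript was the same in both tables for 4 of the 7 genes, and the share over all genes was not computed. The tables thus disagreed on the leading transcript of Scn9a, Scn8a and Scn3b and agreed on that of Scn1a, Scn2a, Scn3a and Scn2b. For Scn3b the lead in the first table was a near tie. Scn3b-202 was at 30.3% against 30.0% for Scn3b-201 in replicate 1, and at 28.1% against 27.1% for Scn3b-203 in replicate 2.

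Scn8a had the most annotated transcripts, 20, and the clearest shift between the animals. Scn8a-205, which starts at chr15:100936271, made up 43.6% of the gene in replicate 1 and 36.4% in replicate 2 in the first table. Its level in replicate 1 was 45.78 TPM, with a 95% posterior interval of 38.8 to 46.9 as deposited. In replicate 2 it was 35.80 TPM, with an interval of 30.4 to 37.5, and the intervals did not overlap. In the second table the same transcript was lower in share, at 21.9% in replicate 1 and 14.1% in replicate 2, and again higher in replicate 1. Scn8a-204, which starts at chr15:100870904, ran the other way, at 8.25% in replicate 1 and 14.6% in replicate 2, although here the intervals of 5.35 to 12.6 and 10.97 to 17.6 TPM overlapped. Scn8a-203 was at 10.8% in replicate 1 and 9.82% in replicate 2, against 26.3% and 24.4% in the second table. Scn8a-212 was at 12.8% and 15.8%, against 4.25% and 6.39% in the second table.

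Grouped by where they start, the protein-coding Scn8a transcripts with an annotated start fell into an upstream group of 9, beginning between chr15:100869858 and chr15:100871420, 1 transcript at chr15:100933429, and a group of 3 from chr15:100936271 to chr15:100936325. The shares that follow are of the summed TPM of these protein-coding transcripts, not of the whole gene. The last of these groups held 54.2% in replicate 1 and 43.9% in replicate 2 by the first table, and 26.8% and 18.0% by the second. The upstream group held 42.8% in replicate 1 and 52.5% in replicate 2 by the first table, and 68.7% and 77.2% by the second. Both tables thus placed the downstream starts higher in replicate 1. They differed on which group was the larger: the second table put the upstream group ahead in both libraries, the first table in replicate 2 alone. With 1 animal on each side, this compares 2 libraries only.

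For Scn2a, the protein-coding transcripts starting at chr2:65620771 (Scn2a-201 and Scn2a-204) held, of all its protein-coding transcripts with an annotated start, 75.7% in replicate 1 and 73.1% in replicate 2 by the first table and 69.9% and 67.7% by the second. Of the whole gene, Scn2a-201 alone was at 46.9% in replicate 1 and 45.8% in replicate 2, and at 48.9% and 50.5% in the second table. Scn2a-204 was at 21.4% and 21.3%, against 7.58% and 6.42% in the second table. Scn2a-205 was at 11.5% and 13.2%, against 24.3% and 27.2% in the second table. Scn2a-202 was at 10.4% and 11.5% in the first table and at nearly 0 in the second. The 3 Scn2a transcripts with a complete coding sequence all have 6018 coding bases.

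The protein-coding Scn1a transcripts with an annotated start began at 3 places. Scn1a-203, starting at chr2:66410064, was at 34.7% in replicate 1 and 38.5% in replicate 2, and led in the second table too, at 43.1% and 45.2%. Scn1a-201, starting at chr2:66351195, was at 30.9% and 31.7% in the first table and at 2.30% and 0.275% in the second. Scn1a-204, starting at chr2:66440837, was at 0 in the first table and at 28.02% and 28.9% in the second. Scn1a-206, a fragment from the same place, was at 19.8% in replicate 1 and 20.04% in replicate 2 in the first table and 0 in the second, and Scn1a-207, a fragment with no found start, was at 5.62% and 0.580%, against 10.3% and 4.001% in the second table. Scn1a-203 has a coding sequence of 6027 bases, against 5994 bases for Scn1a-201 and Scn1a-204. Of the complete coding transcripts, the 6027-base form held 52.9% in replicate 1 and 54.8% in replicate 2 by the first table, and 55.2% and 54.0% by the second. The share of that longer form was thus alike in both tables, while the shares of the individual shorter transcripts were not.

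Scn3b had 4 transcripts with a complete coding sequence, all starting between chr9:40269217 and chr9:40269687. Scn3b-202 was at 30.3% in replicate 1 and 28.1% in replicate 2, against 1.76% and 2.98% in the second table. Scn3b-201 was at 30.0% and 22.1%, against 42.8% and 44.0% in the second table, and Scn3b-203 at 23.8% and 27.1%, against 26.8% and 26.0%. Scn3b-205, which is not annotated as coding, was at 2.96% in replicate 1 and 8.04% in replicate 2, against 16.5% and 13.0% in the second table. Most of the coding message had the 645-base coding sequence, at 96.3% in replicate 1 and 95.3% in replicate 2 by the first table and 97.7% and 98.5% by the second.

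Of the remaining named transcripts, Scn2b-201 was at 16.4% in replicate 1 and 16.6% in replicate 2 and at 0 in the second table, and shares its 645-base coding length with Scn2b-202. Scn3a-201 was at 5.90% in replicate 1 and 12.1% in replicate 2, against 3.44% and 5.21% in the second table, and its 5841-base coding length is that of Scn3a-202. Scn9a-206 was at 27.1% and 25.8% and at 0 in the second table. The retained-intron transcripts Scn9a-204, at 9.49% and 7.21%, and Scn9a-205, at 0 in both libraries, were at 11.4% and 10.8% and at 14.9% and 0 in the second table. Scn9a-201 was at 0 in the first table and at 0 and 9.80% in the second. Transcripts outside the protein-coding class, such as retained introns, held 13.8% of Scn8a in replicate 1 and 11.4% in replicate 2, against 11.03% and 13.2% in the second table. They held 9.83% and 8.09% of Scn2a, against 19.2% and 15.9% in the second table, and 10.3% and 16.3% of Scn3b, against 22.9% and 22.02%. Scn2b and Scn4b had no such transcript annotated.

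**Figure D3:**
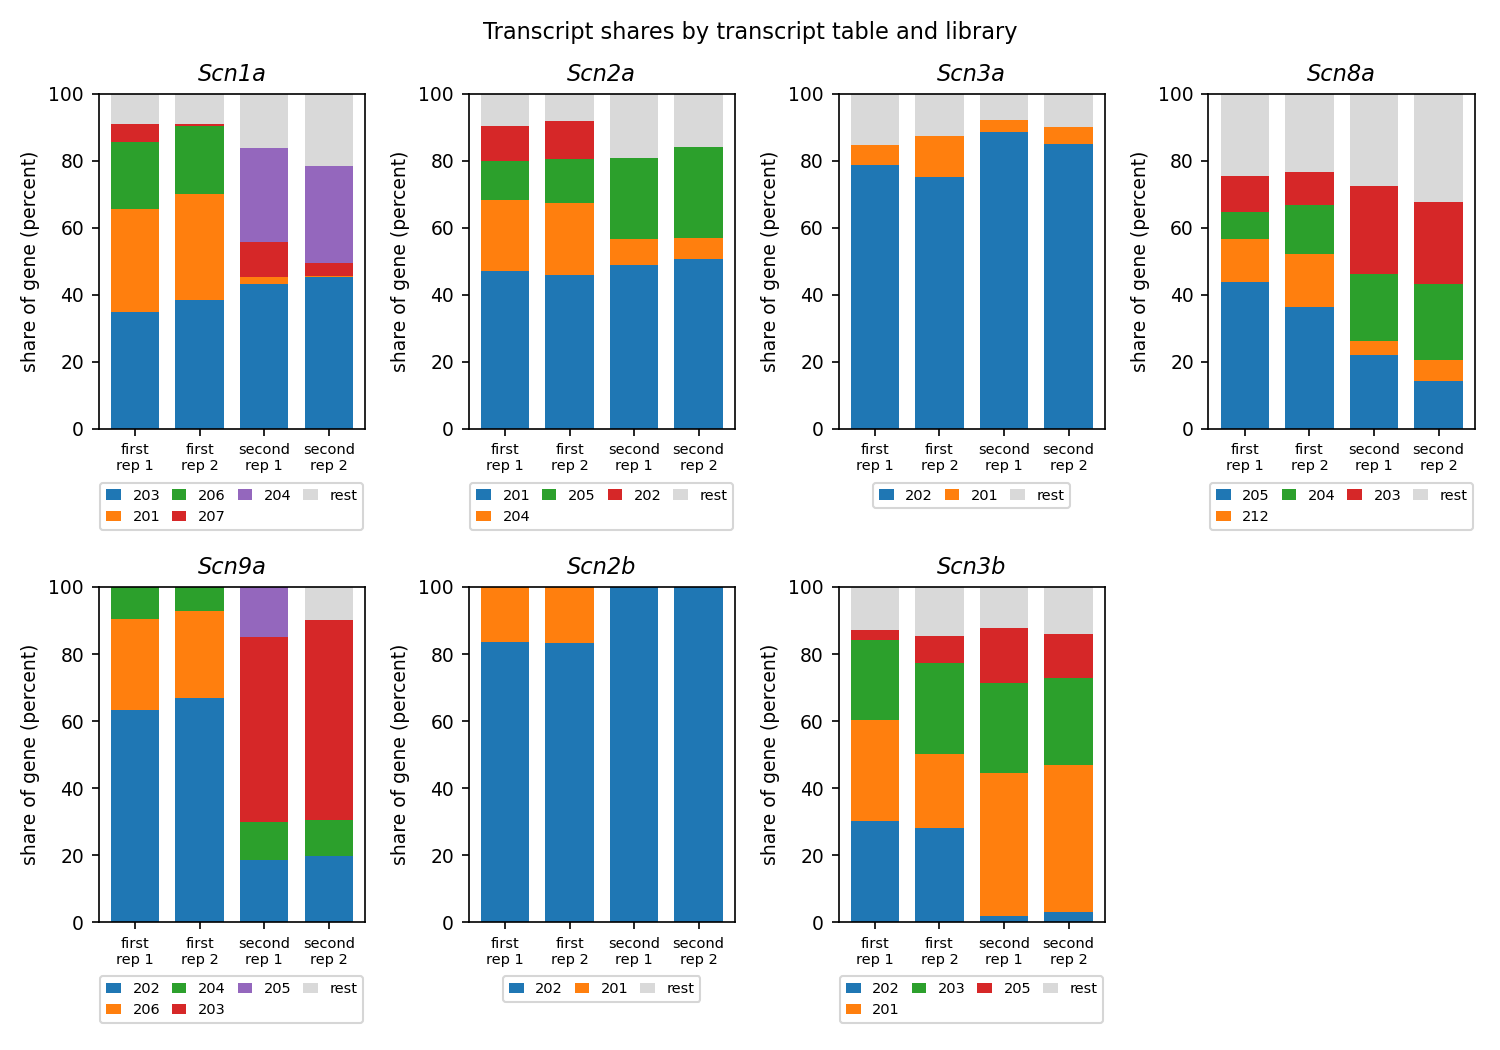
Share (percent) of each gene held by its transcripts, as stacked bars for the first and second transcript table and replicates 1 and 2. Transcripts at 10% or more in any bar are coloured and the rest are grey. The transcript with the largest share is the same in both tables for Scn1a, Scn2a, Scn3a and Scn2b, and another one for Scn8a, Scn9a and Scn3b.

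The libraries were then compared gene by gene. An exact two-sided binomial test on the rounded expected counts, scaled by edgeR's TMM factors and adjusted by Benjamini-Hochberg over 18278 genes, asked whether a gene differed beyond counting error. It compares 2 libraries of 1 animal each and has no replicate check, and in tissue RNA fewer cells of a type and less RNA per cell cannot be told apart. None of the 8 genes was both past an adjusted p of 0.05 and 1.5-fold or more apart, against a background of 1.89% of genes. At any fold, 4 of the 8 passed, against a background of 11.4%, and of 24.1% among the 5307 genes with a mean count of at least 1000. At an unadjusted p of 0.05 the number was 5, for which the share over all genes was not computed. The median log2 ratio of replicate 1 to replicate 2 was 0.06 over the 8 genes and 0.00 over all genes tested.

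In the order of subunit roles, Scn2a was 1.05-fold higher in replicate 1 (95% interval 1.03 to 1.08, exact binomial adjusted p = 0.000421). Scn8a was 1.06-fold higher in replicate 1 (interval 1.03 to 1.08, exact binomial adjusted p = 7.65e-05). Scn3a had a ratio of 0.900 and was the pore subunit higher in replicate 2 (interval 0.850 to 0.952, exact binomial adjusted p = 0.00365). Scn3b, with a ratio of 0.933, was also higher in replicate 2 (interval 0.903 to 0.964, exact binomial adjusted p = 0.000753). Thus 2 members were higher in replicate 1, against a background of 4.73% of genes, and 2 in replicate 2, against 6.64%. By direction, the share among genes with a mean count of at least 1000 was not computed. The other 4 members did not pass. Their ratios were 1.06 for Scn1a (0.0871 adjusted), 1.00 for Scn9a (1 adjusted), 1.02 for Scn2b (0.338 adjusted) and 1.06 for Scn4b (0.675 adjusted), all p-values from the same exact test. The widest intervals were those of Scn9a, from 0.845 to 1.19, and Scn4b, from 0.934 to 1.21, and neither reached 1.5-fold. Scaled by the ERCC totals instead, 2 genes passed at any fold, Scn3a and Scn3b. Under that scaling Scn2a and Scn8a did not pass, with ratios of 1.03 and 1.03. The share of all genes passing with ERCC scaling was not computed. In the second table's TPM, which scales each library to the same total, Scn8a was at 151 in both libraries. Scn2a was at 166 there in replicate 1 and 152 in replicate 2. By that table's TMM-scaled counts both genes still passed at any fold, with ratios of 1.05 for Scn2a and 1.05 for Scn8a.

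**Figure D4:**
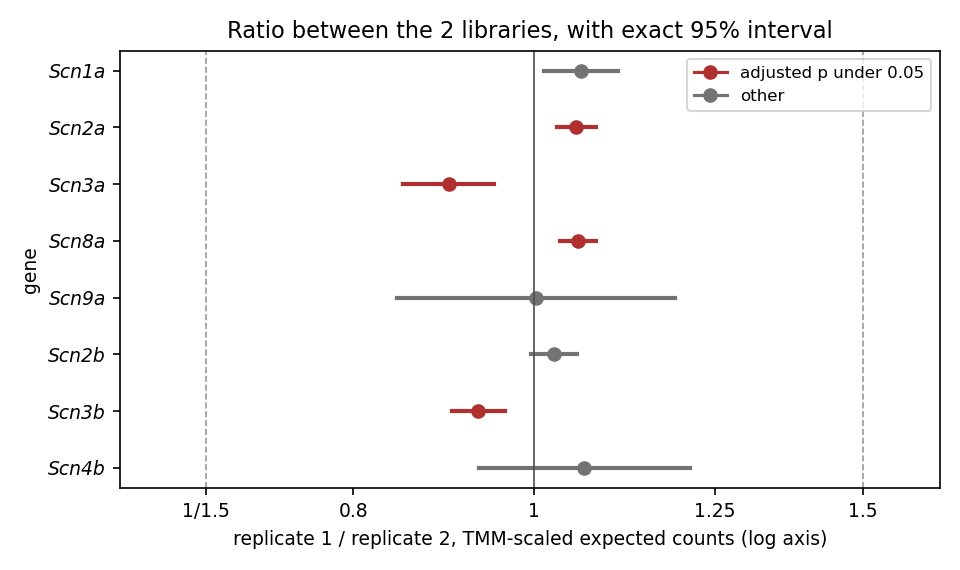
Ratio of replicate 1 to replicate 2 of TMM-scaled expected counts (log axis) for each subunit gene, with its exact 95% interval as a line and the 1.5-fold limits dashed. Scn2a and Scn8a lie above 1, Scn3a and Scn3b below 1, and no interval reaches a dashed line.

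Beside these ratios, all 3 CA1 markers were higher in replicate 1 by the same exact test. All 3 dentate granule markers were higher in replicate 2, with Dsp, a dentate granule marker, also past 1.5-fold. The background over all genes tested was 4.73% higher in replicate 1, 6.64% higher in replicate 2, and 1.89% also past 1.5-fold. Among genes with a mean count of at least 1000, 24.1% passed in either direction. The 6 interneuron markers summed to 409.85 TPM in replicate 1 and 372.43 TPM in replicate 2, and 2 of them were higher in replicate 1. Of the 4 astrocyte markers, 3 were higher in replicate 2, with ratios of 0.913 for Aqp4, 0.909 for Gfap and 0.965 for Slc1a2. Of the 4 oligodendrocyte markers, Opalin and Mobp were higher in replicate 1, with ratios of 1.60, past the fold limit, and 1.06. Pdgfra, 1 of 2 markers of oligodendrocyte precursors, and Cldn5, 1 of 2 of endothelium, were also higher in replicate 1, with ratios of 1.12 and 1.30. The other marker of each, Cspg4 and Flt1, did not pass, with ratios of 1.09 and 1.04. None of the 3 microglia markers or the 2 CA3 markers passed. The 3 choroid plexus markers were higher in replicate 2, with Ttr, their most abundant, at 3.62 TPM in replicate 1 and 179.24 TPM in replicate 2. The part of these cell types in the differences among the sodium channel genes was not tested.

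Levels also depended on the table. The gene table lay below the second table for all 8 genes, and by 1.5-fold or more in both libraries for 4 of them, against a background of 74.5% of the 14870 genes at 1 TPM or more. These 4 were Scn2a, Scn9a, Scn3b and Scn4b. The ratio of the gene table to the second table ran from 0.455 (Scn9a) to 0.753 (Scn1a) in replicate 1 and from 0.537 (Scn9a) to 0.734 (Scn1a) in replicate 2, around a median over all those genes of 0.602 in replicate 1 and 0.590 in replicate 2. Scn9a and Scn3b lay below that median and the other 6 above it, in both libraries. By the second table Scn3b was the highest of the 8, at 173 TPM in replicate 1 and 181 TPM in replicate 2, against 166 and 152 TPM for Scn2a. The 4 leading genes and the order of the 4 lower ones were the same in both tables.

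Other sodium channel genes set these levels in context. Of Scn4a, Scn7a, Scn10a, Scn11a and Nalcn, 1 reached 1 TPM in both libraries. This was Nalcn, the sodium leak channel, at 26.28 TPM in replicate 1 and 25.95 TPM in replicate 2. Scn7a, the sodium-sensing channel gene, was at 0.32 TPM in replicate 1 and 0.38 TPM in replicate 2. Scn4a, the skeletal muscle channel, had 7 counts in replicate 1 and 0 in replicate 2, and the sensory neuron channels Scn10a and Scn11a had 0 in replicate 1 and 1 and 2 counts in replicate 2. Depth sets a floor here, since a count of 0 allows up to 3 counts in a library, by counting error alone. Of the 2 with a mean count of at least 10 (Scn7a and Nalcn), neither differed between the libraries at any fold by the exact binomial test, where the background is 11.4%.

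A further list held genes taken here as axonal partners of sodium channels. All 16 of the partners counted here reached 1 TPM in both libraries, against a background of 26.8% of all genes and 57.8% of protein-coding genes. The list was chosen with earlier results of these data known, so that count is not a result about the partners. The partners include ankyrins, spectrins, neurofascin, contactins, fibroblast growth factor homologous factors, calmodulins and a Kcnq channel. The highest of them were Calm2 and Calm3, which encode calmodulin, a protein that binds the channel's C-terminal tail, and Ank2, an ankyrin. Calm2 was at 873.40 TPM in replicate 1 and 838.45 TPM in replicate 2, Calm3 at 819.10 and 812.95 TPM, and Ank2 at 308.35 and 299.68 TPM. None was past 1.5-fold between the libraries. At any fold, 3 were higher in replicate 1 and 2 in replicate 2, against a background of 11.4% in either direction, and of 24.1% among genes with a mean count of at least 1000, which all of the partners but Fgf11 have. They are named here after their values were seen. Those higher in replicate 1 were Nrcam, Cntn2 and Fgf11, with ratios of 1.04, 1.08 and 1.21. Those higher in replicate 2 were Fgf13 and Nedd4l, with ratios of 0.883 and 0.872.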

How the data were processed

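Total RNA was sequenced from 2 hippocampi, with 300 ng per library, per the labels, which name an ERCC spike-in mix for stranded, ribosomal RNA-depleted work. The deposited gene table gives an expected count, a TPM and a posterior standard deviation of the count (a score) per gene, and its columns are those RSEM writes, per the file headers. A first transcript table adds each transcript's share of its gene in percent and the bounds of its TPM interval, as deposited. A second transcript table, per the file headers in the form kallisto writes, gives an estimated count and TPM per transcript. The deposited description names mm10 and GENCODE M21 and gives an alignment to transcripts as the origin of the gene and first transcript tables and a FASTQ file as that of the second. For program versions, trimming and strand, the setting is not given in the sources used here. The depth was 28786216 and 29755033 expected counts.

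The GENCODE M21 annotation and transcripts supplied positions, exons, coding lengths and sequences. Exon pairs were exons of equal length, at most 1500 bases apart, that no transcript holds together. Shares and sums were computed from TPM, and the tables compared after adding 0.01 TPM. Counts were rounded, scaled by TMM (edgeR 4.0.16, R 4.3.3) and tested with an exact binomial test (scipy 1.17.1) over genes with a mean count of at least 10, with 0.5 counts added for ratios and exact 95% Clopper-Pearson intervals, which cover counting error only. The test was checked on simulated data with counting error only, which is what it assumes. That check does not cover spread between animals. The p-values measure the spread expected from counting, not between animals. All 8 genes, the 3 highest and every gene under 1 TPM of the lists of channel and partner genes, and transcripts of 10% or more in either table were named. Alternatives were other scalings (total counts, DESeq2 1.42.0 size factors, ERCC totals), filters, tables and single libraries. Some listed genes and sequences are not reported here. The 8 genes, lists and tests were chosen with earlier results of these data known.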

Additional observations from a re-analysis of the deposited data

How the results depend on the processing

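All 8 genes stayed at 1 TPM or more in both libraries by the second table, by TPM over protein-coding genes only and in each library alone, and 6 reached 5 TPM. No gene was 1.5-fold apart between the libraries under any scaling, filter or table tried. Without a fold minimum 4 genes passed. In alternatives added after seeing the data, 5 did so by the second table (Scn1a joining) and 2 with ERCC scaling. For these alternatives the share over all genes was not computed. ERCC scaling also turned the ratios of Scn9a to 0.976 and Scn2b to 0.998, neither called. Leaving out a library ends that comparison, so it was not run. By the second table the shares of the pore subunit sum were 10.3% for Scn1a, 42.4% for Scn2a, 40.3% for Scn8a and 0.821% for Scn9a. By expected counts, which grow with transcript length, they were 10.7% for Scn1a, 38.5% for Scn2a, 7.03% for Scn3a, 42.9% for Scn8a and 0.782% for Scn9a. The ratio of the pore to the beta sum was 1.11 by the second table and 2.04 by expected counts. From 1 library at a time, it was 1.16 to 1.29. The cause of the differences between tables was not tested. One transcript held over 50% in 3 genes under each alternative but posterior mean shares, which gave 2. No paired analysis was possible because the 2 libraries form 1 group. With 2 animals, spread is known only roughly, and depth limits Scn9a and its transcripts most.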
